A study of Homo sapiens with 6 samples.

Results

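Steroid hormone receptors switch genes on and off through partner proteins called coregulators, and 7 of these genes are described here: the coactivators NCOA1, NCOA2, NCOA3, EP300, CREBBP and MED1 and the corepressor NCOR1. They were chosen by symbol, and all 7 were found among the 37923 genes of the deposited tables. The tables hold RNA-seq data of 6 samples, 3 in the group named Control and 3 in the group named ENZ, all labelled as RKO, an established line from a human colon carcinoma. The series design describes ENZ as cells exposed to compound A3, a degrader of the histone demethylase LSD1, with RNA taken at 48 h, and calls the 3 samples of a group biological replicates. No source used here gives the dose, what Control received or what ENZ stands for. Whether replicates were separate cultures is not stated, so each p-value rests on the spread among these samples only, which may be technical. In such bulk samples fewer cells of a type and less RNA per cell cannot be told apart.

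A hormone-bound steroid receptor recruits the steroid receptor coactivator family, NCOA1 to NCOA3, whose members serve as docking platforms. These bring in EP300 and its paralog CREBBP, acetyltransferases that acetylate histones and other proteins, while MED1 is the Mediator subunit that links nuclear receptors to RNA polymerase II. NCOR1 does the opposite work, tethering a complex with the deacetylase HDAC3 to receptors that lack an activating ligand. In hormone-responsive tissues these proteins are known as partners of the steroid receptors.

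The libraries held 26691289 to 30025543 counts. Most markers of the labelled tissue were low: 8 of 11 intestinal markers found averaged under 1 CPM (counts scaled to the library total), and 2 averaged over 10 CPM. Of 14 prostate luminal markers, 10 averaged over 10 CPM and 1 under 1 CPM. The summed level of the intestinal list was 65.5 to 68.3 CPM in Control and 87.6 to 91.4 CPM in ENZ, and that of the prostate list was 3433 to 3495 and 3685 to 3711 CPM. Among 9 markers of leukocytes, fibroblasts and endothelium 8 were under 1 CPM and CD3E was at 0 counts, which allows up to 0.0999 to 0.112 CPM per library. The part of these markers in the results below was not tested. KDM1A, which encodes LSD1, averaged 113 ± 2.15 CPM in the Control libraries and 108 ± 3.18 CPM in the ENZ libraries (SD, n = 3), with a log2 fold change of −0.02 (edgeR, adjusted p = 0.681). A degrader acts on protein, so this transcript is no check of the exposure.

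All 7 coregulators were transcribed in every library, with 973 to 7040 counts each. Levels of different genes are compared in FPKM, fragments scaled to gene length and library total. In Control, MED1 had the highest level, 17.5 ± 0.183 FPKM (SD, n = 3), followed by NCOR1 with 15.6 ± 0.232 and EP300 with 13.4 ± 0.301. CREBBP was next with 6.43 ± 0.214 FPKM. The steroid receptor coactivator family came last, NCOA2 with 5.95 ± 0.230 FPKM, NCOA3 with 4.99 ± 0.342 and NCOA1 with 4.12 ± 0.120. No neighbours in this order overlapped between their 3 Control libraries. In ENZ the order was the same, at 17.2 ± 0.324 FPKM for MED1, 14.6 ± 0.630 for NCOR1, 14.2 ± 0.505 for EP300, 7.22 ± 0.174 for CREBBP, 6.43 ± 0.403 for NCOA2, 5.68 ± 0.421 for NCOA3 and 4.27 ± 0.176 for NCOA1, but NCOR1 (13.99 to 15.2) and EP300 (13.8 to 14.7) overlapped.

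The order at the top depended on the length used. The length behind the deposited FPKM equalled the union of all annotated exons in GENCODE 44 for 6 of the 7 genes, for example 11692 bp for EP300, and was 15392 bp against a union of 15620 bp for NCOR1. Scaled instead to the Ensembl canonical transcript (10705 bp for NCOR1, 8137 bp for MED1), NCOR1 led in Control with 22.5 FPKM and MED1 had 18.6, EP300 17.8, CREBBP 9.22, NCOA2 7.06, NCOA3 5.27 and NCOA1 5.02. NCOA3 (SD 0.362) and NCOA1 (SD 0.145) were then no longer clearly apart in Control. In ENZ, EP300 (18.9 FPKM) stood above MED1 (18.2 FPKM) on these lengths. Fold differences between groups within a gene do not depend on the length used.

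**Figure D1:**
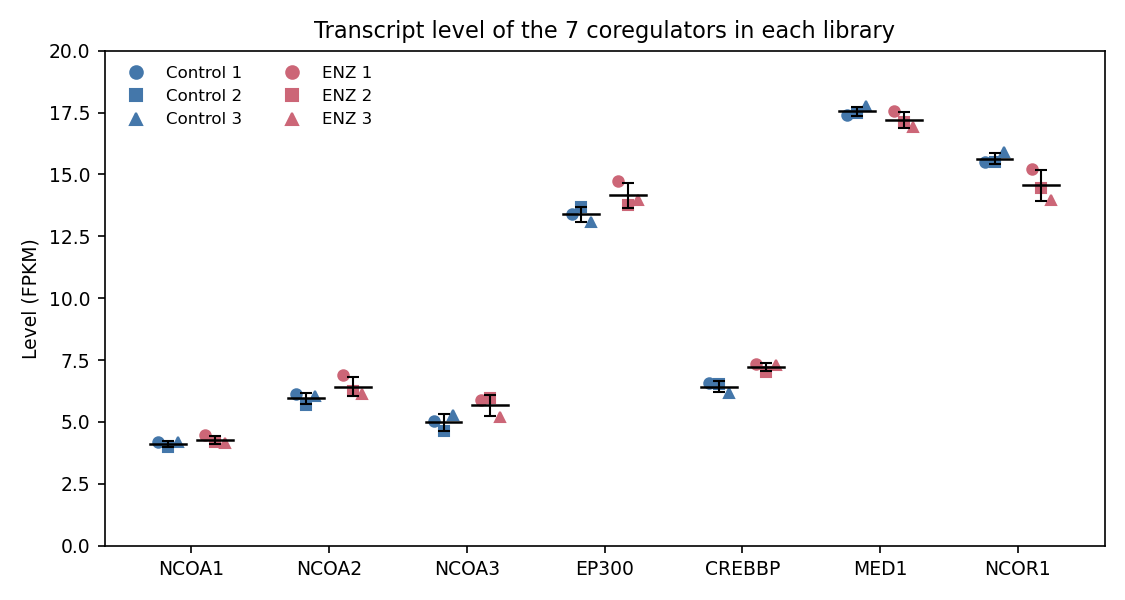
Level in FPKM (vertical axis, from 0) of each coregulator in the 3 Control and 3 ENZ libraries; marker shapes show the replicate number, bars the mean and error bars 1 SD. MED1, NCOR1 and EP300 lie between 13.1 and 17.8 FPKM in every library, and the other 4 genes lie at 7.33 or below.

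Differences between the groups were tested gene by gene with edgeR over all 18581 genes kept, with a call at an adjusted p under 0.05. Of the 7 coregulators, 4 rose in ENZ and 0 fell, and the other 3 were not called. Over all genes tested 20.5% were called higher and 19.3% lower, so 39.8% of tested genes were called in either direction. By an unadjusted p under 0.05 the same 4 rose and 0 fell, and DESeq2 also called 4 higher and 0 lower. The median log2 fold change was 0.12 among the 7 and −0.01 among all genes tested. No coregulator came near the limit of an absolute log2 fold change of 1 that the series design names, which 2.98% of tested genes passed with a call.

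The library values below are CPM scaled with TMM factors, the scale on which the groups were tested. NCOA3, the family member known for its amplification in breast cancer, had 41.9, 38.6 and 44.03 CPM in Control and 49.8, 50.9 and 44.6 in ENZ. All ENZ libraries lay above all Control libraries, with ENZ 3 just above Control 3. NCOA3 rose by 0.22 ± 0.06 (log2 fold change ± SE), a 1.17-fold difference with a 95% interval of 1.07 to 1.27 (adjusted p = 0.00584). The call held without each library in turn (log2 fold change 0.17 to 0.28), and with offsets for GC content and transcript length the change was 0.27 (adjusted p = 5.77e-05). The call ended in the 3 limma fits on FPKM values (0.16 to 0.18; adjusted p = 0.0872, 0.0880 and 0.233).

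NCOA2 (ENSG00000140396; GRCh38 chromosome 8, 70109782 to 70403808), a paralog with the same docking role, had 60.4, 56.6 and 59.7 CPM in Control and 69.4, 63.6 and 62.7 in ENZ. The groups did not overlap, and ENZ 1 was the highest library. NCOA2 rose by 0.15 ± 0.05 (adjusted p = 0.0257). The call ended without Control 2 (adjusted p = 0.113), without Control 3 (0.0510) and without ENZ 1 (0.0875), and on library totals alone (0.11, adjusted p = 0.0954); with GC and length offsets it was 0.18 with a call (adjusted p = 5.58e-04). In the 3 limma fits on FPKM values it was not called (adjusted p = 0.171, 0.171 and 0.340).

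NCOA1, the founding member of the family, had 37.1, 35.6 and 37.3 CPM in Control and 40.4, 38.3 and 38.0 in ENZ. The groups did not overlap, yet the log2 fold change of 0.09 ± 0.05 was not called (95% interval −0.03 to 0.20; adjusted p = 0.228) in edgeR's test or under any of 18 alternatives. The interval excludes a change above 1.15-fold. NCOA1 has the fewest counts of the 7, and its spread over the Control libraries, 2.90% of the mean, was no larger than the 3.14% that counting alone gives. Over the ENZ libraries its spread was larger, 4.12% against 3.02%.

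The summed level of the 3 family members was 14.3 to 15.5 FPKM in Control and 15.5 to 17.2 FPKM in ENZ, and ENZ 3 overlapped Control. NCOA2 made up 39.5% ± 0.549 of that sum in Control and 39.3% ± 0.983 in ENZ (SD, n = 3), and NCOA1 made up 27.4% ± 0.445 and 26.1% ± 0.615. The family thus kept its order, NCOA2 over NCOA3 over NCOA1, in each of the 6 libraries.

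CREBBP had 100.2, 100.5 and 94.6 CPM in Control and 114, 110.3 and 115 in ENZ. These groups stood farther apart than those of any other coregulator here in units of the SE, with all ENZ libraries above all Control libraries. CREBBP rose by 0.20 ± 0.04, a 1.15-fold difference with an interval of 1.08 to 1.22 (adjusted p = 5.97e-04), and the call held without each library in turn. With GC and length offsets the log2 fold change was 0.08 and not called (adjusted p = 0.0785), and of the 3 limma fits on FPKM values the unfiltered one did not call it (0.15, adjusted p = 0.0653).

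EP300 had 154, 159 and 151 CPM in Control and 173, 163 and 167 in ENZ. The groups did not overlap, and ENZ 1 was the highest library. EP300 rose by 0.12 ± 0.04 (1.08-fold; adjusted p = 0.0216). The call ended without Control 1 (adjusted p = 0.0729) and without Control 3 (0.103), on library totals alone (0.08, adjusted p = 0.096), and with GC and length offsets (0.04, adjusted p = 0.298). It also ended in the 3 limma fits on FPKM values (adjusted p = 0.139, 0.139 and 0.276).

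MED1 had 148, 149 and 151 CPM in Control and 152, 149.6 and 148 in ENZ, so the groups overlapped. Its log2 fold change was 0.01, with an interval of −0.07 to 0.08 (adjusted p = 0.929 in edgeR's test), which excludes a rise above 1.06-fold and a fall below 0.951-fold. The sign of so small a value changed with the scaling, to −0.03 on library totals alone.

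NCOR1, the corepressor, had 235.2, 237 and 242 CPM in Control and 235.8, 226 and 219.5 in ENZ. ENZ 2 and ENZ 3 lay below every Control library and ENZ 1 lay among them. The log2 fold change was −0.07 ± 0.04 and was not called (interval −0.15 to 0.01; adjusted p = 0.147). Without ENZ 1 it was −0.10 with a call (adjusted p = 0.0222), and on library totals alone it was −0.10 with a call (adjusted p = 0.0291). It was negative in each of the 18 alternatives.

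**Figure D2:**
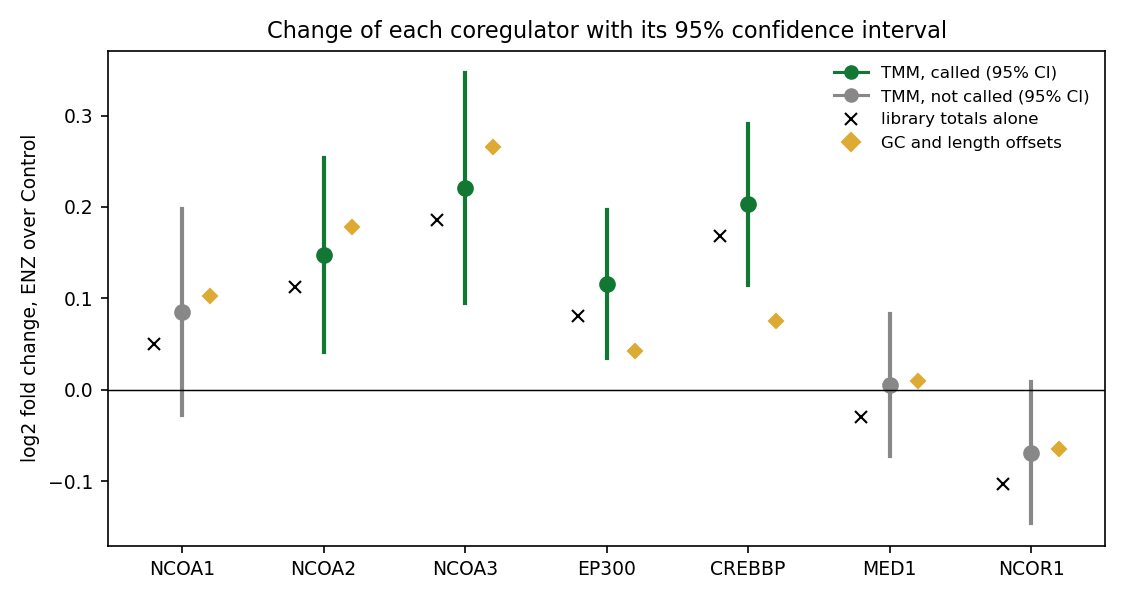
Log2 fold change of ENZ over Control (vertical axis) for each coregulator: circles with 95% confidence intervals from TMM-scaled counts, crosses on library totals alone, and diamonds with offsets for GC content and length. The intervals of NCOA2, NCOA3, EP300 and CREBBP lie above 0, and the diamonds of EP300 and CREBBP drop to 0.04 and 0.08.

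Of the 7 genes, 5 had all ENZ libraries above all Control libraries and 0 had all below, beside 25.3% and 24.0% of tested genes. On the deposited FPKM scale, which has no TMM factor, the groups of NCOA1, NCOA3 and MED1 overlapped and those of NCOA2, EP300 and CREBBP did not. NCOR1 did not overlap on that scale either, and it was lower in ENZ (13.99 to 15.2 FPKM) than in Control (15.5 to 15.9 FPKM). Ratios of 2 coregulators within a library, which no library scaling alters, are given as values without a test. NCOR1 had 3.70, 3.89 and 3.79 times the FPKM of NCOA1 in Control and 3.41, 3.44 and 3.38 times in ENZ, without overlap. Neither gene was called by itself, and NCOR1 was set against no other coactivator. How often the ratios of other gene pairs fail to overlap was not measured. CREBBP had 0.490, 0.478 and 0.473 times the FPKM of EP300 in Control and 0.498, 0.510 and 0.523 times in ENZ, again without overlap. These ratios carry no correction for GC content. With GC and length offsets the log2 fold changes of CREBBP and EP300 were 0.08 and 0.04, against 0.20 and 0.12 without. NCOA2 over NCOA1 was 1.46, 1.43 and 1.44 in Control and 1.54, 1.49 and 1.48 in ENZ. NCOA3 over NCOA1 (1.16 to 1.26 in Control, 1.253 to 1.42 in ENZ) and NCOA3 over NCOA2 (0.812 to 0.877 and 0.846 to 0.952) overlapped between groups.

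**Figure D3:**
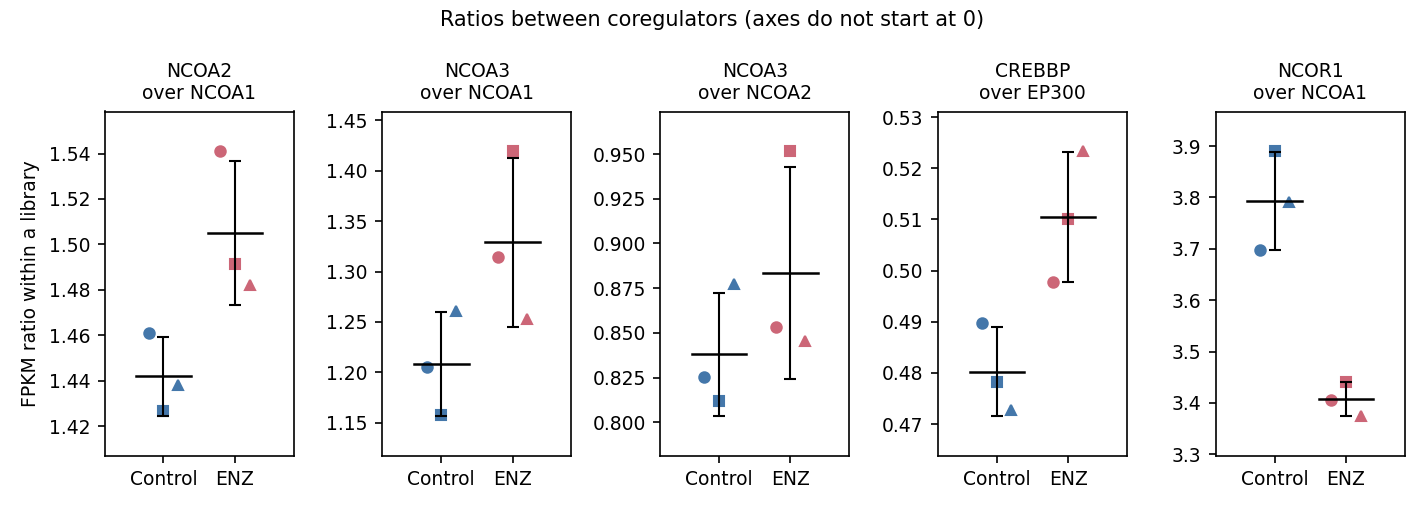
Ratio of the FPKM values of 2 coregulators within a library (vertical axes, which do not start at 0) in Control (blue) and ENZ (red); marker shapes show the replicate number, bars the mean and error bars 1 SD. NCOR1 over NCOA1 lies at 3.70 or more in Control and at 3.44 or less in ENZ, and the 2 ratios with NCOA3 overlap.

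The transcripts differ in base composition. The longest transcripts of NCOA3, NCOA2, NCOA1, MED1 and NCOR1 have a GC content of 42.7% to 45.2%, that of EP300 49.8% and that of CREBBP 55.8%. Over all tested genes the median log2 fold change was −0.18 under 40% GC, 0.01 from 40% to 60% and 0.14 above 60%. With offsets that remove such trends, 2 coregulators were called higher, NCOA2 and NCOA3, and the values of CREBBP and EP300 were smaller, as given above. All 7 transcripts are long, and among the 2150 tested genes with a transcript of 7000 bp or more 21.1% were called higher and 28.9% lower.

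**Figure D4:**
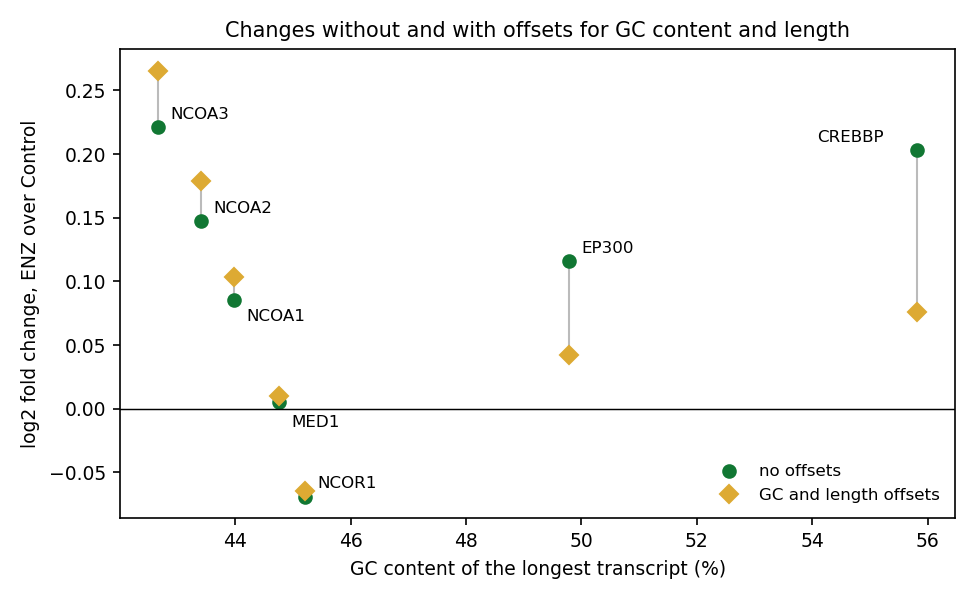
GC content of the longest annotated transcript (horizontal axis, percent) against the log2 fold change of ENZ over Control (vertical axis) without offsets (circles) and with offsets for GC content and length (diamonds). CREBBP, at 55.8% GC, moves from 0.20 to 0.08, while NCOA3, at 42.7%, moves from 0.22 to 0.27.

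In GRCh38 NCOA1 (ENSG00000084676) lies on chromosome 2 from 24491254 to 24770702, NCOA3 (ENSG00000124151) on chromosome 20 from 47501887 to 47656877, EP300 (ENSG00000100393) on chromosome 22 from 41092592 to 41180077 and CREBBP (ENSG00000005339) on chromosome 16 from 3725054 to 3880713. NCOR1 (ENSG00000141027) and MED1 (ENSG00000125686) both lie on chromosome 17, from 16029065 to 16218185 and from 39404285 to 39451272. The canonical transcripts have 17 exons in MED1, 23 in each of NCOA1, NCOA2 and NCOA3, 31 in each of EP300 and CREBBP and 46 in NCOR1. The library kit does not mark strand, so reads of a gene and an overlapping gene on the other strand cannot be told apart. For NCOR1 the exons shared with TTC19 and PIGL cover 2.18% and 2.06% of its exon length, and neither neighbour was called (log2 fold changes −0.09 and 0.05). Another antisense gene, ENSG00000227782, shares 188 bp of exon, had 18 to 36 counts per library beside 5951 to 7040 for NCOR1, and was called lower (−0.75, adjusted p = 0.0268). EP300-AS1 shares no exon base with EP300 and had 66 to 94 counts per library beside 4080 to 5171 for EP300. Another antisense gene, ENSG00000232754, shares 107 bp (0.915%) of the EP300 exon length and had 0 to 3 counts per library. For NCOA3 the exons shared with SULF2 cover 2.93% of its exon length. SULF2 had 12 to 27 counts per library and was not called (log2 fold change 0.24). For MED1 8.76% of the exon length is shared with an antisense transcript of 1 to 10 counts per library.

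To show how paralogs with like roles differ in their upstream DNA, the 250 bases before the annotated start are printed for NCOA1 and NCOA3 and for EP300 and CREBBP, from RefSeq (GRCh38.p14), 5′ to 3′ on the strand of the gene, with matches to a searched motif in capitals. These 4 genes were matched to a RefSeq window that ends at their GENCODE gene start. The windows are chr2:24491004-24491253 (+), chr20:47501637-47501886 (+), chr22:41092342-41092591 (+) and chr16:3880714-3880963 (−).
NCOA1: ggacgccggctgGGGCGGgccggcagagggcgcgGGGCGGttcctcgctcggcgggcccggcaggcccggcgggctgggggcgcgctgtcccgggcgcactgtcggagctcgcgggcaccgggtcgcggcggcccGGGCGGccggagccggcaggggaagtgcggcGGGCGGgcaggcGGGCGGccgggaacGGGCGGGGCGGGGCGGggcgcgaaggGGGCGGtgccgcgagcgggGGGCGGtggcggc
NCOA3: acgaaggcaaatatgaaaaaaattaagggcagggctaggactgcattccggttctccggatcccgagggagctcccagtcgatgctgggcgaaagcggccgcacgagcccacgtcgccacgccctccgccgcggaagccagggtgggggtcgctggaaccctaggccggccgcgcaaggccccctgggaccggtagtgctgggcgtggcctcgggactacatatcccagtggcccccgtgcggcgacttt
EP300: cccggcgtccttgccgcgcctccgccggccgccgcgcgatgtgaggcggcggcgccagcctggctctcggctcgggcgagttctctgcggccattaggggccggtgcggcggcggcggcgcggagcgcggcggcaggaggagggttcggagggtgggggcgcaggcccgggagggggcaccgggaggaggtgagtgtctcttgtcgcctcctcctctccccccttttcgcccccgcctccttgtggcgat
CREBBP: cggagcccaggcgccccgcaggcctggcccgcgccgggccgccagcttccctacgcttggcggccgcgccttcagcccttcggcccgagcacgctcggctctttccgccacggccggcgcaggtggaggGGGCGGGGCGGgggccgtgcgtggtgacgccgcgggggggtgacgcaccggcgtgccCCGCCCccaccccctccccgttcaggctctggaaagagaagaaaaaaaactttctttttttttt
The GC content of these windows was 87.2% for NCOA1, 66.4% for NCOA3, 76.8% for EP300 and 72.4% for CREBBP. The search covered GGGCGG, the core of the GC box, the cyclic AMP response element TGACGTCA, the E-box CACGTG, the ETS-type word CCGGAAG and the full palindromic glucocorticoid response element, on both strands. The NCOA1 window holds 10 matches to GGGCGG and the CREBBP window 3, some of which share a base with the next, while those of NCOA3 and EP300 hold none. No match to the other 4 motifs is in these 4 windows. Of 35116 RefSeq windows of this length, 42.6% hold GGGCGG, 1.65% the cyclic AMP element, 6.34% the E-box, 8.52% the ETS-type word and 1 window the palindromic element. These are letter matches only, and no binding was measured.

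The receptors that these coregulators serve were unequally present. The glucocorticoid receptor gene NR3C1 rose by 0.29 ± 0.06 (6.22 to 7.43 FPKM; adjusted p = 8.96e-04), and the mineralocorticoid receptor gene NR3C2 rose by 0.28 ± 0.06 (3.45 to 4.10 FPKM; adjusted p = 0.00112). The oestrogen receptor gene ESR2 was low and fell by 1.28, from 1.77 ± 0.152 to 0.705 ± 0.131 CPM (adjusted p = 1.76e-04). ESR1 and PGR peaked at 0.150 and 0.112 CPM and were too low to be tested.

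Of 35 tested nuclear receptors 14 rose and 10 fell, with a median log2 fold change of 0.10. Named rises were those of the thyroid receptor gene THRA (0.47) and the fatty acid receptor gene PPARA (0.40). The falls with the smallest p-values were those of the retinoic acid receptor gene RARB (−1.09), of NR5A2 (−1.41), a receptor of digestive organs, and of the early response gene NR4A1 (−0.40). Changes over 1 on the log2 scale were found in RARB, NR5A2 and ESR2. Over all tested genes 2.98% were called with an absolute change over 1.

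Other corepressor genes were measured beside NCOR1. Of the partners of NCOR1, TBL1X rose by 0.23 (adjusted p = 5.30e-04), while TBL1XR1 (0.12, adjusted p = 0.0959), GPS2 (0.17, adjusted p = 0.319) and HDAC3, the catalytic subunit (−0.02, adjusted p = 0.736), were not called; TBL1XR1 was called without Control 3 (0.16), without ENZ 3 (0.18), with no filter on low counts (0.12) and with GC and length offsets, alone or with the replicate block (0.30 each).

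Of 22 tested corepressor genes 9 rose (40.9%) and 0 fell, beside 20.5% and 19.3% of all tested genes. Their median log2 fold change was 0.09. By an unadjusted p under 0.05 in edgeR 1 was lower, NRIP1 (named after its value was seen), and DESeq2 called 0 lower. With GC and length offsets, and also without ENZ 1, 4 were called lower. CORO2A, described as a component of the NCOR complex, had the largest rise, from 10.1, 10.7 and 11.1 CPM by library total in Control to 21.8, 22.0 and 20.1 in ENZ (2.05-fold; adjusted p = 4.55e-10). HDAC1, a deacetylase of several repressor complexes, rose by 0.22.

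Other coactivators went both ways, with 9 rises (29.0%) and 5 falls (16.1%) among 31 tested and a median of 0.04. Over all tested genes these shares were 20.5% and 19.3%. CALCOCO1 rose by 0.34, NCOA6, a scaffold of histone methyltransferase complexes, by 0.26, and ASCC1 by 0.26. Falls were found in the cell cycle and apoptosis regulator CCAR1 (−0.38), the helicase gene ASCC3 (−0.34) and the bromodomain gene BRD8 (−0.27).

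Mediator, the complex of MED1, had 5 rises (15.6%) and 3 falls (9.38%) among 32 tested genes besides MED1, so 24 were not called. Both shares were below the 20.5% and 19.3% of all tested genes, and the median of the Mediator list was 0.01. MED18 (0.44), MED13L (0.22) and MED27 (0.22) rose. MED8 fell by 0.54, from 47.0 ± 3.16 to 31.5 ± 2.30 CPM (adjusted p = 7.06e-07), and the kinase module cyclin gene CCNC (−0.38) and MED10 (−0.26) also fell. With GC and length offsets CCNC, whose transcript has 35.3% GC, fell by 0.15. Among 13 acetyltransferase genes besides EP300 and CREBBP, 1 rose (ELP3, 0.19) and 3 fell (ATAT1, −0.37; CLOCK, −0.28; KAT2A, −0.15), with a median of −0.01. These were 7.69% and 23.1% of that list. The call of KAT2A ended without Control 2, without Control 3 and without ENZ 2 (adjusted p = 0.112, 0.102 and 0.0676), and that of CLOCK without Control 3 (adjusted p = 0.0545).

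**Figure D5:**
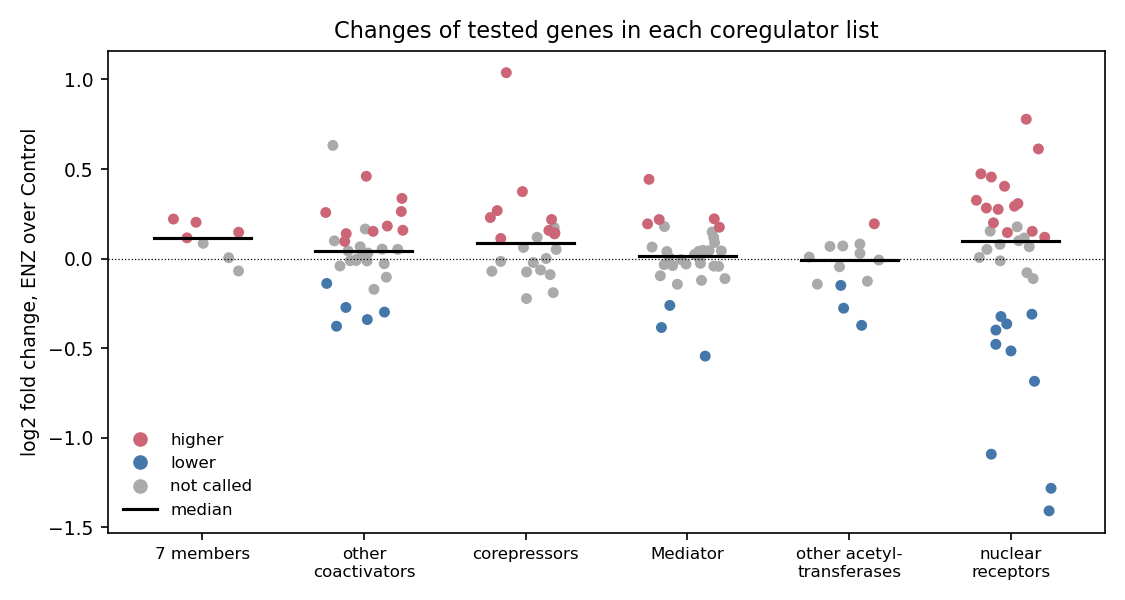
Log2 fold change of ENZ over Control (vertical axis) of each tested gene in 6 lists, coloured by call, with the median as a bar; the horizontal scatter within a list carries no value. The 7 coregulators lie between −0.07 and 0.22, a narrower span than that of the nuclear receptors, which reach from −1.41 to 0.78.

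Across the 6 libraries the paralogs NCOA1 and NCOA2 followed each other closely, with a Pearson correlation of log2 CPM of 0.99, and both were highest in ENZ 1 and lowest in Control 2. EP300 and CREBBP had a correlation of 0.94, and NCOR1 had −0.77 with CREBBP and −0.51 with EP300. These values describe 6 libraries that share the group difference and the scaling. Among 10121 other genes with a mean of at least 10 CPM, the pattern most like that of NCOA1 was found in CLCN3 and GNA13, of NCOA2 in PHKB and GNA13, and of NCOA3 in NSMCE2 and DYRK1A, with correlations of 0.987 to 0.997. The closest to CREBBP were SPEN, itself a nuclear receptor corepressor gene, and MCM9, to EP300 PKD1P5 and SMAD9, to NCOR1 EHBP1 and URI1, and to MED1 CAB39 and GET1 (0.962 to 0.997). PKD1P5 is a pseudogene with near-identical copies, so its count is uncertain. Picking the highest of 10121 correlations over 6 libraries favours high values, and shared regulation was not tested.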

How the data were processed

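Per the labels' protocols, poly(A) RNA was made into libraries with a kit that keeps no strand record, and per the series design 150 bp paired reads were sequenced. HISAT2 2.0.5, HTSeq 0.6.1, DESeq2 1.20.0 and GRCh38 are named in the submitters' processing notes; no source used here gives the annotation release or strand setting. Unnormalized gene counts were deposited, and beside them FPKM values deposited by the authors, which equalled count over 1 length per gene and library total to within 6.34e-06 percent (values of at least 10 counts). Rows without a symbol (9849 genes, 0.875% of counts) were kept. ENZ was set against Control in edgeR 4.0.16, run in R 4.3.3: default filter, TMM factors, robust quasi-likelihood F test, Benjamini-Hochberg adjustment over 18581 genes, no covariate. SE is the absolute log2 fold change over the square root of F. Replicates differed by more than sampling noise (chi-square per degree of freedom 1.93 to 6.15). On simulated counts for 18581 genes, 44% of the genes changed 1.25-fold and 76% of those changed 2-fold were recovered. False calls made up 6.54% of all calls. Only 50 genes were changed at each fold, a far smaller share than the 39.8% of genes called here. These rates therefore do not measure recovery in the comparison of ENZ and Control.

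The alternatives were DESeq2 1.42.0, limma-voom (limma 3.58.1), median-ratio factors, library totals, 2 other count filters (none, and 10 counts in 3 libraries), a block for replicate number, spline offsets (4 degrees of freedom each) for GC content and length of the longest GENCODE 44 transcript (known for 99.8% of tested genes), alone and with the block, limma on FPKM values (log2 with a pseudocount of 1 or 0.1 where the gene averaged 1 FPKM or more, and with a pseudocount of 1 for every gene), and omission of single libraries. The length of the canonical transcript was added after seeing the data. Named genes were the 7 coregulators, the steroid receptors, the partners of NCOR1, KDM1A, and up to 3 called genes per list and direction with the smallest adjusted p and a mean of at least 1 CPM; likeness was ranked by Pearson's r over 6 libraries. The members and lists were chosen with earlier results of these data known. Some genes under this rule are not reported here.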

Additional observations from a re-analysis of the deposited data

How the results depend on the processing

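Of the 7 coregulators, NCOA1 stayed uncalled and kept its sign in all 18 alternatives, and NCOA2, NCOA3, EP300 and CREBBP were positive in all of them, called in 11, 15, 10 and 15. NCOR1 was negative in all and called in 2. Against 4 coregulators higher and 0 lower, 2 were higher on library totals alone (and 1 lower), 2 with GC and length offsets and 2 with these offsets and the replicate block, 1 on log2(FPKM + 1) and 1 on log2(FPKM + 0.1) with a mean of at least 1 FPKM, and 0 on log2(FPKM + 1) over all genes. Leaving out 1 library gave 2 to 4 higher and 0 to 1 lower. MED1 turned to −0.0296 on library totals, to −0.0278 on log2(FPKM + 1), filtered or not, and to −0.0293 on log2(FPKM + 0.1). Leaving out 1 library gave −0.0018 (ENZ 1) to 0.0162 for MED1, with −0.0011 without Control 1, −0.0581 to 0.0116 (ENZ 1) for HDAC3 and −0.0483 to 0.0051 (ENZ 1) for KDM1A.

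Over all genes 3814 were higher and 3579 lower; on log2(FPKM + 1) 2526 were higher, on log2(FPKM + 0.1) 2520, and over unfiltered log2(FPKM + 1) 1723 were higher and 2005 lower. On library totals alone 3097 were higher and 4104 lower. Leaving out 1 library gave 3041 to 4264 higher and 2782 to 3994 lower. With GC and length offsets, with and without the replicate block, 8 other coactivators, 4 corepressors, 6 Mediator genes and 5 acetyltransferases were lower and 2 acetyltransferases higher; with the block 8 Mediator genes were higher. Corepressors had 2 falls on library totals, with no count filter and with the replicate block, and 0 to 4 when a library was left out; acetyltransferases had 1 to 4. Other coactivators had 4 rises on log2(FPKM + 1) and 4 on log2(FPKM + 0.1). Unfiltered log2(FPKM + 1) gave 3 rises for other coactivators, 4 for corepressors, 1 for Mediator, 0 rises and 1 fall for acetyltransferases and 7 rises and 5 falls for nuclear receptors. On canonical transcript lengths mean FPKM in Control and ENZ was 5.02 and 5.20 for NCOA1, 7.06 and 7.64 for NCOA2, 5.27 and 6.003 for NCOA3, 22.5 and 20.9 for NCOR1, 17.8 and 18.9 for EP300, 9.22 and 10.4 for CREBBP and 18.6 and 18.2 for MED1.

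Same-numbered libraries shared little, with correlations of −0.05 to 0.02 in their deviations from the group means. These values cannot decide whether the samples were paired by replicate number. With the replicate block alone 3832 genes were higher and 3634 lower, and 4 coregulators were higher. Called changes of coregulators were 1.08-fold to 1.17-fold, and the simulated data held no changes that small.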
